A study of Mus musculus with 4 samples.

Results

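Translation initiation factors (eIFs) are the proteins that bring the ribosome, the initiator tRNA and the mRNA together at a start codon. Their genes were taken from the counts table by name, as every gene named Eif1 to Eif6, leaving out the eIF2 kinase genes (Eif2ak) and names with -ps (pseudogenes). The rule found 52 of 56350 genes. It uses names only and no measured value. The name Eif2c5 also meets it, although Eif2c is an older name for Argonaute proteins, which are not initiation factors. The filter on low counts kept 48 of the 52 genes for testing.

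The cells were EO771, a mammary carcinoma line from C57BL/6 mice. One group of 2 libraries came from cells given BML-210, an inhibitor of histone deacetylases, at 1.0 µM for 48 h. The other group of 2 libraries is labelled untreated, while the protocol speaks of vehicle for the same time. All 4 libraries are total RNA of 1 cell line without any genetic change named in the labels. Nothing says whether replicates were separate cultures, so p-values measure only the spread between these libraries. That spread was small, with a common biological coefficient of variation of 2.49% in the edgeR fit, so small differences can be called. The library codes hold a D for the untreated label and a V for the BML-210 label. Those letters do not settle which culture got the drug, and every direction below rests on the treatment labels.

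Initiation starts when eIF2, carrying GTP and the initiator tRNA, joins eIF1, eIF1A, eIF3 and eIF5 on the small ribosomal subunit. The cap-binding complex eIF4F (the cap binder eIF4E, the scaffold eIF4G and the helicase eIF4A) recruits mRNA to it, and the 4E-BP proteins hold eIF4E back when mTOR signalling is low. After the start codon is found, eIF5 triggers GTP hydrolysis by eIF2, eIF5B joins the large subunit, and eIF2B recharges eIF2 for another round.

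Gene counts summed to between 13167893 and 16534667 per library. CPM below are counts scaled to the TMM-adjusted library size, and every fold change is BML-210 over untreated. Of 7 mammary epithelial markers, only Krt8 stood above 1 CPM (46.4 in untreated and 30.7 in BML-210 libraries), while Krt18 and Epcam were near 0. The mesenchymal filament gene Vim stood at 1707 CPM in untreated and 1662 CPM in BML-210 libraries (means of 2) and did not pass. Pdgfrb of the same list of 5 mesenchymal markers rose from 54.9 to 81.3 CPM (log2 fold change 0.57). Col1a1 of that list did not pass, with means of 22.93 CPM in untreated and 21.95 CPM in BML-210 libraries. Its members Col1a2 (0.0304 and 0.149 CPM) and Fn1 (0.0609 and 0 CPM) were near 0 and were not tested. The summed level of 6 macrophage markers was 166 and 170.4 CPM in the untreated and 35.3 and 34.4 CPM in the BML-210 libraries. Nearly all of it was Cd68 (162 and 31.1 CPM, called lower). Of the 4 tested markers of this list, 2 were called lower and 0 higher (50%, against 46.4% of all tested genes). The other called marker was Adgre1, with 33 and 13 counts in untreated and 1 and 4 in BML-210 libraries (-2.98). Lyz2 (-0.40) and the leukocyte marker Ptprc (0.705 and 0.735 CPM) did not pass. The summed level of the genes listed for RNA quality and ribosomal RNA carry-over (Gm26917, Gm42418, Malat1, Neat1 and mitochondrial genes) was 136714 and 144068 CPM in untreated and 116799 and 119435 CPM in BML-210 libraries. Most of that difference lay in Gm26917 (means of 60125 and 42313 CPM, not called) and Malat1 (16749 and 11220 CPM, called lower). Of the 26 tested genes of the list, 9 were called higher and 4 lower (50%, against 46.4% of all tested genes). Among the higher ones were mt-Cytb (0.58), mt-Nd1 (0.43) and Neat1 (0.18). A fit without the 4 genes over 1% of counts, which include Gm26917 and Malat1, called 6711 genes, against 6714 with them. Beyond that fit, the part of these shifts in the results below was not tested. In bulk RNA, fewer cells of a kind and less RNA per cell cannot be told apart.

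The pool of initiation factor RNA was nearly the same size in both groups, while single members moved apart inside it. The 52 genes together made up 10370 and 10358 CPM in the untreated libraries and 10677 and 10717 CPM in the BML-210 libraries, a ratio of 1.03. Called at an adjusted p under 0.05 by edgeR's quasi-likelihood test were 25 of the 48 tested genes (52.1%), against 46.4% of all 14455 tested genes. Of these, 14 rose (22.9% of all tested genes did) and 11 fell (23.5% of all tested genes). With upper-quartile scaling, which lowers every fold change slightly, the split was 12 higher and 16 lower, beside 2946 higher and 3747 lower among all tested genes. The median log2 fold change of the 48 was 0.0080, beside -0.0025 for all tested genes. Without sign, the median size of the change on the log2 scale was 0.12 for the members and 0.25 for all tested genes, and 0 members passed 2-fold, against 7.28% of all tested genes. The groups did not overlap in CPM for 38 members (79.2%, against 71.3% of all tested genes), with 18 higher (35.2% of all tested genes) and 20 lower (36.1%).

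**Figure D1:**
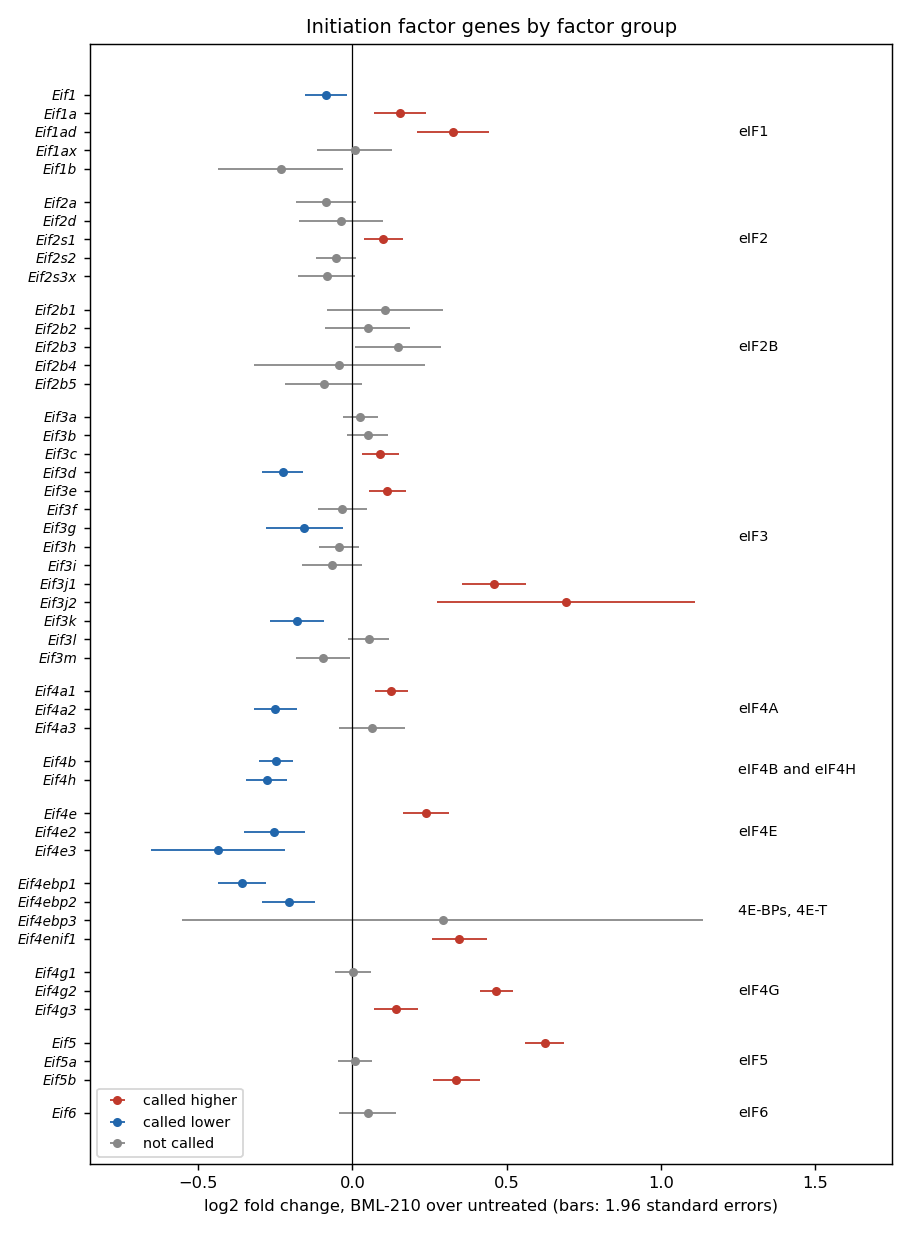
Log2 fold change of each of the 48 tested initiation factor genes (x axis, BML-210 over untreated, with 95% intervals), ordered by factor group on the y axis and coloured by the edgeR call. The genes of eIF2 and eIF2B lie close to 0, Eif5 (0.62) and Eif4g2 (0.47) lie far to the right with short bars, and Eif4b, Eif4h and both main 4E-BP genes lie to the left.

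By adjusted p, the first 6 members that rose were Eif5, Eif4g2, Eif3j1, Eif5b, Eif4enif1 and Eif4e, and the first 5 that fell were Eif4ebp1, Eif4b, Eif4h, Eif4a2 and Eif3d. Promoters of the members were read for the E-box CACGTG, the site of the MYC and MAX family, which reads the same on both strands. RefSeq promoter windows of GRCm38.p6 (250 bases before to 50 after the start) were read for 40 of the 52 genes. Of these, 10 held a CACGTG in any window. Members on the chromosome that carries Eif1a, Eif3j2 and Eif4ebp3 were left out of these counts, although Eif1a and Eif3j2 rose. Over all 27025 genes with a window, counted without that exclusion, 8.09% held one. The member counts and this share are thus over unlike sets of genes. Among members, it was found for 2 of 10 that rose, 2 of 9 that fell and 5 of 18 tested genes that were not called. Shown here, to set sequence beside outcome, are upstream stretches of 5 members picked after their values were seen, without any base that GENCODE M21 annotates as exon. Eif4a1 rose, Eif4h fell and Eif4g1 did not pass, and each stretch holds 1 E-box (capitals). The whole Eif4g1 window holds 2, the other one outside the printed stretch. In the deposited coordinates Eif4g1 begins at 20668313, so its stretch lies inside the gene, before an internal RefSeq start. Eif5, the clearest rise, and Eif4b, a fall, hold none in their windows. Each is given 5′ to 3′ on the strand of its gene, and a match or its absence is a description of letters only.
Eif4a1, chr11:69672424-69672673, minus strand, E-box 189 bases before the start: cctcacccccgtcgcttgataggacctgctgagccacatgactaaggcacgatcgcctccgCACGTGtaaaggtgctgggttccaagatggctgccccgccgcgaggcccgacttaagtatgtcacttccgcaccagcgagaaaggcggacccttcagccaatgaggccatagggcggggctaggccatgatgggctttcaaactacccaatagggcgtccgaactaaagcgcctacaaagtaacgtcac
Eif4h, chr5:134639491-134639659, minus strand, E-box 96 bases before the start: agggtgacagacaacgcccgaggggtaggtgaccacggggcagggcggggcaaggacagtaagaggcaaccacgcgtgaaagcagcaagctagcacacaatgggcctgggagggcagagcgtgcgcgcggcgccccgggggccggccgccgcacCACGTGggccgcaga
Eif4g1, chr16:20672477-20672722, plus strand, E-box 54 bases before the start: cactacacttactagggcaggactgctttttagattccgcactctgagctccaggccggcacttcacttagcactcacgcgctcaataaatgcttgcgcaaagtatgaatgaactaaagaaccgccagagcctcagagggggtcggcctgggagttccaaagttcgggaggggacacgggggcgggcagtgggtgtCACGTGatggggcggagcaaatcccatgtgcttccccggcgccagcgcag
Eif5, chr12:111537851-111538015, plus strand, no E-box: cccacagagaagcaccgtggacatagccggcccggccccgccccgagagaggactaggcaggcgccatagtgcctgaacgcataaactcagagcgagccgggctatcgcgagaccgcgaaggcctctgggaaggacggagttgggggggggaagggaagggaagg
Eif4b, chr15:102073523-102073772, plus strand, no E-box: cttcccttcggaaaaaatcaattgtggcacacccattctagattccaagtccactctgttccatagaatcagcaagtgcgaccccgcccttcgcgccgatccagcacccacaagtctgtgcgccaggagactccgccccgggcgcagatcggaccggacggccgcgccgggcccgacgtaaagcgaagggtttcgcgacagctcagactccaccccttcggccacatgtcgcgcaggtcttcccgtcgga

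The genes of eIF2, which carries the initiator tRNA, and of its exchange factor eIF2B showed small differences between the groups. Of 10 tested genes, 1 was called (10%, against 46.4% of all tested genes). With upper-quartile scaling that call was lost and 3 others were made, all lower (Eif2s2, Eif2s3x and Eif2a). The called gene was Eif2s1, the alpha subunit whose phosphorylation by stress kinases slows initiation, with 331.6 and 319.3 CPM in the untreated and 348.6 and 349.8 CPM in the BML-210 libraries. All of its BML-210 values lay above the untreated ones, by 0.10 ± 0.032 on the log2 scale (SE; edgeR adjusted p = 0.00757). That call ended with upper-quartile scaling, with DESeq2 and without untreated replicate 2, BML-210 replicate 1 or BML-210 replicate 2 (adjusted p up to 0.0761, from 0.00140, over 14 alternatives).

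The beta subunit gene Eif2s2 went from 308.8 and 302.6 to 294 and 295.8 CPM, and the gamma subunit gene Eif2s3x from 105.1 and 103.1 to 99.2 and 97.5 CPM. Neither passed (log2 fold change -0.05, interval -0.12 to 0.012, and -0.08, interval -0.18 to 0.010, each interval covering 95%). With upper-quartile scaling, which was 1 of 14 alternatives, both were called lower (edgeR adjusted p = 0.0375, in a range up to 0.488, and 0.0475, up to 0.457). The X-linked Eif2s3x has a Y-linked copy, Eif2s3y, which had 1 count in untreated replicate 2 and 1 in BML-210 replicate 1. Of the 100-base words in Eif2s3x transcripts, 33.7% also occur in transcripts of Gm2223, so its count is uncertain. The genes of eIF2A and eIF2D, alternative tRNA carriers, did not pass either (Eif2a -0.09, Eif2d -0.04), although Eif2a was called lower with upper-quartile scaling (-0.11, edgeR adjusted p = 0.0497, in a range up to 0.648).

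Of the 5 eIF2B genes, 0 were called by edgeR, and 0 under any of the 14 alternatives, DESeq2 and limma-voom included. Eif2b1 (0.11), Eif2b2 (0.05) and Eif2b3 (0.15) had positive values and Eif2b4 (-0.04) and Eif2b5 (-0.09) negative ones. Eif2b3 came closest, with 37.9 and 36.9 CPM in the untreated and 41.0 and 41.9 CPM in the BML-210 libraries (edgeR adjusted p = 0.0846). The interval that reached furthest up among the 10 genes ended at 0.29 (Eif2b1), and the one that reached furthest down ended at -0.32 (Eif2b4), so the data allow changes up to that size for these genes.

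Factors of start codon selection moved unequally. Eif5, which encodes the GTPase-activating protein of eIF2, showed the clearest change of all members. It lies on chromosome 12 (ENSMUSG00000021282.17, 111538016 to 111546752, mm10) and stood at 258.7 and 260.2 CPM in the untreated libraries and at 397.5 and 402 CPM in the BML-210 libraries. The groups were far apart next to the spread between replicates, with a fitted log2 difference of 0.62 ± 0.032 (SE; adjusted p by edgeR = 1.67e-24), a rise of 54.1%. Eif1, which holds the ribosome open until the right codon is met, was at 275.6 and 266.4 CPM in untreated and 257.4 and 253.8 CPM in BML-210 libraries. This was a fall of 0.09 ± 0.034 on the log2 scale (SE; edgeR adjusted p = 0.0355). The fall of Eif1 was lost under 7 of 14 alternatives, among them DESeq2, library size only and the fits without untreated replicate 1, BML-210 replicate 1 or BML-210 replicate 2 (adjusted p up to 0.224, from 0.00443).

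Per length, in RPKM (CPM per kilobase of exon), Eif5 stood at 0.289 and 0.3 times the level of Eif1 in the untreated libraries and at 0.475 and 0.487 times that level in the BML-210 libraries. Relative to Eif2s1 the same quantity for Eif5 was 0.566 and 0.591 in untreated and 0.828 and 0.834 in BML-210 libraries. Both ratios were higher in both BML-210 libraries, which follows from the fold changes of the single genes given above. With 2 libraries a group, the smallest two-sided p that an exact permutation test can give is 0.333, so ratios are given without a test.

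Eif1b, a close relative of Eif1, did not pass (22.2 and 21.6 against 17.8 and 19.4 CPM, log2 fold change -0.23, edgeR adjusted p = 0.0575). It was called lower in 3 of 13 alternatives, which were upper-quartile scaling, the filter at a mean of 1 CPM and the replicate block (adjusted p from 0.0312 to 0.289 over the 13). Of the 2 genes of eIF1A, which works beside eIF1, Eif1a rose from 132.6 and 126.4 to 145.2 and 143.2 CPM (log2 fold change 0.15 ± 0.043, SE, edgeR adjusted p = 0.00225), and the X-linked Eif1ax did not pass at 53.3 and 51 against 52.9 and 52 CPM (0.0075, interval -0.12 to 0.13). Eif1ad, which encodes a protein with an eIF1A domain, rose from 54.3 and 51.1 to 66.9 and 65.5 CPM (0.33 ± 0.059, SE, edgeR adjusted p = 6.08e-06). Its exons overlap those of Banf1 on the other strand, which share 11.03% of its transcript words, and Banf1 itself had a log2 fold change of -0.12 (adjusted p = 0.0865).

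The 14 genes of eIF3, the largest initiation factor and the scaffold on the small subunit, kept a nearly constant sum (3207 and 3159 CPM untreated, 3213 and 3215 CPM BML-210). Of these, 4 rose, 3 fell and 7 did not pass, so that 50% were called against 46.4% of all tested genes. With upper-quartile scaling the rise of Eif3c was lost and Eif3m was called lower (-0.12, edgeR adjusted p = 0.0177, in a range up to 0.413). Without the 2 genes of the loosely bound eIF3j subunit, log2 fold changes ran from -0.23 to 0.11.

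Eif3j1 rose from 68.6 and 65.3 to 93.6 and 90.8 CPM, a fitted log2 difference of 0.46 ± 0.053 (SE; adjusted p by edgeR = 7.62e-11). Its copy Eif3j2 rose from 3.35 and 3.71 to 5.90 and 5.49 CPM (0.69 ± 0.21, SE, edgeR adjusted p = 0.00565), a call that ended with DESeq2 (adjusted p = 0.0846, the highest of 13 alternatives, from 0.00457). These are not 2 separate observations: 84% of the words of 100 bases in Eif3j2 transcripts also occur in Eif3j1 transcripts. Exons of Eif3j1 also overlap those of Spg11 on the other strand, whose log2 fold change was -0.14. Both BML-210 libraries were above both untreated libraries for each copy.

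Eif3d, which encodes the subunit that can bind the cap of some mRNAs itself, fell from 293.4 and 297.8 to 249.5 and 255.8 CPM (log2 fold change -0.23 ± 0.034, SE, edgeR adjusted p = 8.99e-08). Transcripts of the antisense gene Gm17638 share 32.0% of its words, and that gene had between 28 and 48 counts a library. Eif3k, a peripheral subunit, fell from 131.8 and 131.8 to 118.4 and 114.5 CPM (-0.18 ± 0.044, SE, edgeR adjusted p = 0.000578), whereas its partner Eif3l did not pass (0.05, interval -0.013 to 0.12).

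Eif3g fell too, from 53.5 and 51.6 to 47 and 47.4 CPM (-0.16, adjusted p = 0.0395), but the call was lost with DESeq2, library size only, no filter and each of the 4 libraries left out (adjusted p up to 0.267, from 0.0137). Small rises were called for Eif3c (0.09) and Eif3e (0.11), both of the structural core. That of Eif3c ended with upper-quartile scaling, with DESeq2 and without untreated replicate 1 or BML-210 replicate 2 (adjusted p up to 0.191, from 0.00268). Eif3a (0.03), Eif3b (0.05), Eif3f (-0.03), Eif3h (-0.04), Eif3i (-0.07) and Eif3m (-0.09) did not pass.

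Per length the eIF3 genes differed from each other far more than between groups. Eif3h was highest (199 RPKM in untreated and 193 in BML-210 libraries, means of 2), followed by Eif3c (124 and 132). Eif3l, Eif3b, Eif3a, Eif3e, Eif3d, Eif3f, Eif3m and Eif3k lay between 76.4 and 48.8 RPKM in untreated libraries, Eif3g and Eif3i at 26.5 and 25.1, Eif3j1 at 11.5 and Eif3j2 at 1.48. Neighbours changed places between the groups (Eif3a with Eif3e, Eif3d with Eif3f, Eif3g with Eif3i), and the outer ranks did not. Exonic length here counts all annotated isoforms, which lowers the value of genes with long rarely used exons.

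**Figure D2:**
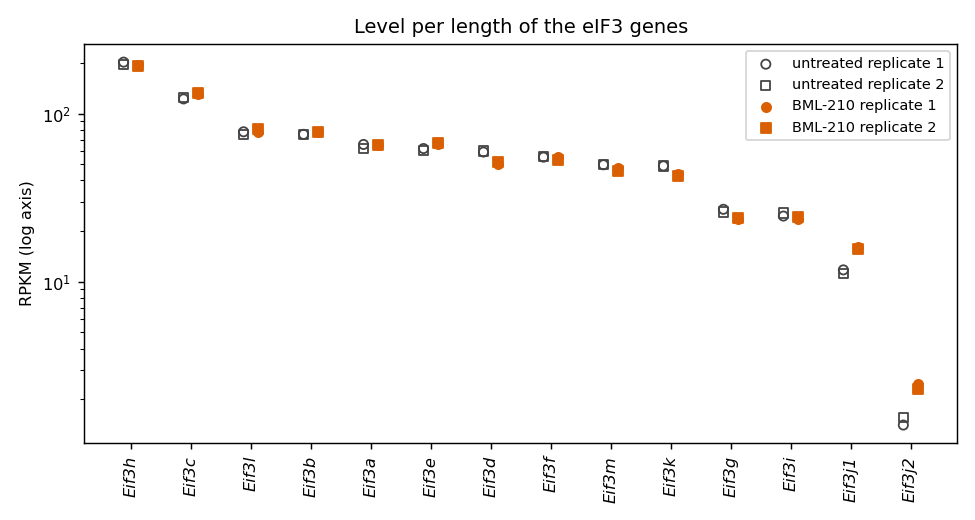
Level per length (RPKM, log axis) of the 14 eIF3 genes in each library, ordered by the untreated mean. Open symbols are untreated and filled ones BML-210 libraries, and the upward shift is seen for Eif3j1 (11.5 to 15.8 RPKM) and Eif3j2 while Eif3d and Eif3k shift down.

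Of the 15 tested eIF4 genes, 12 were called (80%, against 46.4% of all tested genes), 5 higher and 7 lower. The factor groups were not matched by level to all tested genes, and small changes are called more easily at high counts. By absolute log2 fold change, the called eIF4 genes lay between percentile 27.1 (Eif4a1) and 73.6 (Eif4g2) of all tested genes. The cap binder Eif4e rose from 167.2 and 166.5 to 197.9 and 195.7 CPM (log2 fold change 0.24 ± 0.038, SE, edgeR adjusted p = 4.38e-07). It lies on chromosome 3 (138526179 to 138559696, mm10). Its 2 tested relatives went the other way. Eif4e2, which encodes a cap binder that represses translation, fell from 96.6 and 104.4 to 83.3 and 85.1 CPM (-0.25 ± 0.051, SE, edgeR adjusted p = 2.99e-05). Eif4e3, a weaker cap binder, fell from 20.6 and 21 to 16.9 and 13.9 CPM (-0.44 ± 0.11, SE, edgeR adjusted p = 0.000812).

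That fall of Eif4e3 was lost without BML-210 replicate 2 (adjusted p = 0.0622, the highest of 13 alternatives, from 0.000154). Exons of Eif4e3 overlap those of Gm20696, which had 26 to 48 counts a library and a log2 fold change of 0.79. Eif4e made up 56.9% and 55.5% of the RPKM of the 3 cap binder genes in untreated and 64.9% and 65.9% in BML-210 libraries. The oocyte form Eif4e1b had 0 counts in all libraries.

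Of the 3 genes for the 4E-BP proteins that hold eIF4E back, 2 fell and 1 did not pass. Eif4ebp1, the main 4E-BP gene in these cells, is on chromosome 8 (27260329 to 27276674, mm10) and fell from 191 and 199.1 to 151.5 and 152.8 CPM (log2 fold change -0.36 ± 0.039, SE, edgeR adjusted p = 1.94e-11). Eif4ebp2 fell from 144.3 and 149.4 to 122.7 and 131.4 CPM (-0.21 ± 0.044, SE, edgeR adjusted p = 6.65e-05). Eif4ebp3 was near 1 CPM and did not pass (0.29, interval -0.55 to 1.14), and 62.8% of its transcript words also occur in AC115631.1. By contrast Eif4enif1, whose product 4E-T carries eIF4E into the nucleus and into P-bodies, rose from 99.6 and 102.3 to 125.8 and 130.8 CPM (0.35 ± 0.046, SE, edgeR adjusted p = 3.59e-09).

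Per length, Eif4e stood at 0.249 and 0.238 times the sum of Eif4ebp1 and Eif4ebp2 in untreated libraries and at 0.365 and 0.353 times that sum in BML-210 libraries. The ratio of RNA levels was thus 1.48 times as high in the BML-210 libraries. Its direction follows from the calls of these genes given above, so it is no separate result. RNA levels say nothing of 4E-BP phosphorylation, which was not measured.

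Of the eIF4G scaffold genes, Eif4g2 and Eif4g3 rose and Eif4g1 did not pass. Eif4g2 encodes DAP5, a form of eIF4G without the eIF4E binding site, and lies on chromosome 7 (ENSMUSG00000005610.17, 111067750 to 111083030, mm10). It went from 699.2 and 690.1 to 958.8 and 960.8 CPM, a fitted log2 difference of 0.47 ± 0.027 (SE; adjusted p by edgeR = 4.51e-22). Eif4g1 had 460.5 and 462.7 CPM in untreated and 463.3 and 461.6 CPM in BML-210 libraries (0.0027, interval -0.055 to 0.061). Eif4g3 rose slightly, from 199.7 and 203.4 to 223.2 and 221.4 CPM (0.14 ± 0.036, SE, edgeR adjusted p = 0.000946). Eif4g2 thereby went from 45.9% and 45.4% to 53.0% and 53.2% of the RPKM of the 3 genes.

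The helicase genes split as well. Eif4a1, the abundant form, rose from 628.2 and 638.9 to 688.5 and 694.5 CPM (log2 fold change 0.13 ± 0.028, SE, edgeR adjusted p = 0.000125), and Eif4a2 fell from 244.1 and 239.3 to 207 and 200.02 CPM (-0.25 ± 0.036, SE, edgeR adjusted p = 4.34e-08). Eif4a3, whose product sits in the exon junction complex rather than in eIF4F, did not pass (73.3 and 74.4 against 80.2 and 74.2 CPM, 0.06). The Eif4a1 share of the RPKM of Eif4a1 and Eif4a2 was 76.0% and 76.7% in untreated and 80.4% and 81.0% in BML-210 libraries. The pseudogene Eif4a-ps4, left out by name, shares 20.8% of the words of Eif4a1 and had between 211 and 244 counts a library. Exons of Eif4a2 overlap those of Rfc4 on the other strand (log2 fold change 0.28, adjusted p = 0.0878) and of Gm24616 on the same strand (0.0087), which had 204 to 257 counts a library.

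Both genes for the helpers of the helicase fell, by nearly the same amount. Eif4b went from 834.7 and 844.6 to 692.2 and 722.7 CPM (log2 fold change -0.25 ± 0.028, SE, edgeR adjusted p = 4.04e-11). Eif4h went from 310.8 and 318.4 to 261.4 and 257.5 CPM (-0.28 ± 0.033, SE, edgeR adjusted p = 2.76e-10). For neither gene were any exon overlaps or shared transcript words found. Together they lost more CPM than any other factor group, from 1145 and 1163 to 954 and 980.2. The largest gain was that of the eIF4G genes, from 1359 and 1356 to 1645 and 1644 CPM.

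**Figure D3:**
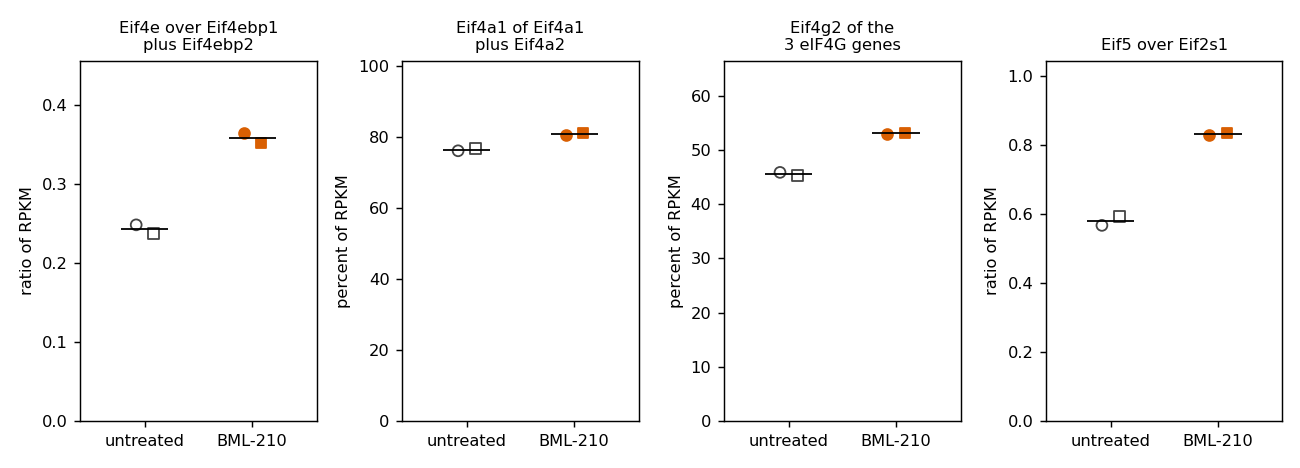
Ratios and shares of RPKM in each library (open symbols untreated, filled symbols BML-210, lines group means, all y axes from 0). Eif4e relative to its 4E-BP genes, the Eif4a1 and Eif4g2 shares of their families and Eif5 relative to Eif2s1 were higher in both BML-210 libraries than in both untreated libraries. These directions follow from the fold changes of the single genes, and the quantities were chosen after the data were seen.

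Among the late factors, Eif5b, whose product joins the large subunit, rose from 170.4 and 159.9 to 205.1 and 212.7 CPM (log2 fold change 0.34 ± 0.039, SE, edgeR adjusted p = 9.39e-11). Its exons overlap those of Rev1 on the other strand, which share 11.7% of its words and rose by 0.20. Eif6, which keeps the large subunit from joining too early, did not pass (105.3 and 117.3 against 114.6 and 115.2 CPM, 0.05, interval -0.044 to 0.14). Eif5a, the hypusine-bearing factor that helps elongation past difficult motifs, was the most abundant member per length (369 RPKM untreated, 371 BML-210) and did not pass at 856.2 and 900.1 against 882 and 884 CPM (0.0085, interval -0.046 to 0.063). Its relative Eif5a2 had 1 count over all libraries, below the 3 counts (0.183 to 0.227 CPM in single libraries) used as a floor for counting error only.

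**Figure D4:**
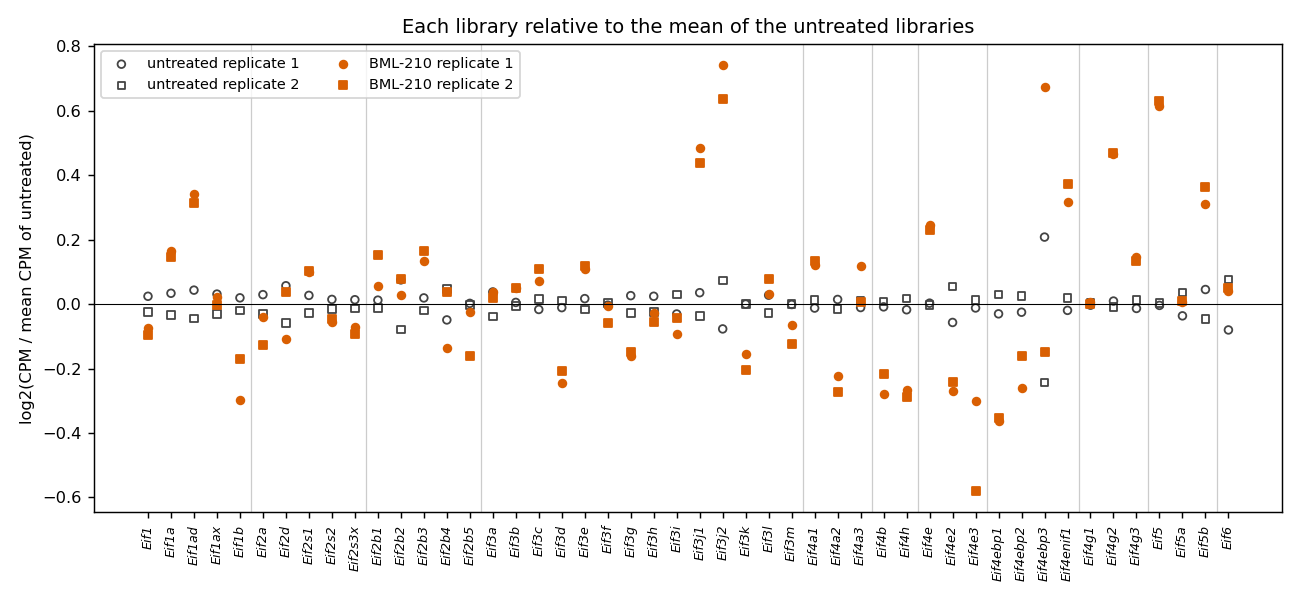
Each library's CPM as log2 of its ratio to the untreated mean (y axis) for the 48 tested genes (x axis, grouped by factor). Untreated libraries scatter closely around 0 except for low-count genes such as Eif4ebp3, and the 2 BML-210 libraries lie together and away from 0 for Eif5, Eif4g2, Eif3j1, Eif4b, Eif4h and Eif4ebp1.

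The lists of partners and regulators of the factors were drawn up with earlier results of these data known. They were also not matched by level to all tested genes. The shares called below therefore describe these lists only. Of 72 such genes in the table, 68 were tested, and 29 rose and 19 fell (70.6%, against 46.4% of all tested genes). With upper-quartile scaling, 21 rose and 20 fell. Among 14 tested genes of eIF2 phosphorylation and its stress readouts, 8 rose and 3 fell (78.6% called). With upper-quartile scaling, 2 of the rises were lost (Eif2ak2 and Ppp1r15b). The eIF2 phosphatase subunit gene Ppp1r15a (GADD34) went from 50.1 and 54.1 to 106.6 and 99.2 CPM (log2 fold change 0.98 ± 0.056, SE, edgeR adjusted p = 1.26e-22). The stress transcription factor genes Atf4 (0.35, from 419.3 and 412.7 to 526.1 and 538 CPM) and Ddit3 (0.53, from 13.4 and 15.9 to 19.7 and 22.2 CPM) rose. Of the kinase genes, Eif2ak3 (PERK) fell from 82.9 and 75.5 to 56.1 and 55 CPM (-0.51), Eif2ak4 (GCN2) fell (-0.24), Eif2ak2 (PKR) rose (0.18, edgeR adjusted p = 0.0203) and Eif2ak1 did not pass (-0.09). The rise of Eif2ak2 ended with upper-quartile scaling, with DESeq2 and without any 1 of the 4 libraries (adjusted p up to 0.177, from 0.0114).

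Of 19 tested genes of cap and mTOR control, 10 rose and 5 fell (78.9% called, against 46.4% of all tested genes). With upper-quartile scaling, 4 of the rises were lost (Cyfip1, Ddit4, Mlst8 and Tsc2). The mTOR inhibitor gene Deptor went from 28.7 and 30.4 to 11.7 and 14.7 CPM (log2 fold change -1.15 ± 0.11, SE, edgeR adjusted p = 4.15e-14). The 2 kinase genes for eIF4E phosphorylation moved apart, with Mknk2 down from 39.1 and 43.8 to 22.9 and 21.3 CPM (-0.90) and Mknk1 up from 37.8 and 40.1 to 53 and 47.3 CPM (0.37). The stress-induced mTOR brake Sesn2 rose from 82.6 and 84.9 to 110.4 and 116.8 CPM (0.44). Mtor (0.10) and Rptor (-0.03) did not pass.

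Of 16 tested poly(A), helicase and ribosome partners, 4 rose and 5 fell (56.2% called, against 46.4% of all tested genes), and the rise of Ncbp1 was lost with upper-quartile scaling. The scaffold gene Ctif, which works with the nuclear cap-binding complex, fell from 96.3 and 93.9 to 46.6 and 42 CPM (log2 fold change -1.10 ± 0.058, SE, edgeR adjusted p = 4.82e-24). Mcts2 (-0.51, from 21.8 and 20.8 to 13.9 and 16 CPM) and the poly(A)-binding protein gene Pabpc1 (-0.30, from 3464 and 3446 to 2835 and 2782 CPM) fell, while the binding partner gene Paip1 (0.32, from 58.5 and 57.8 to 72.6 and 72.7 CPM) and the helicase gene Ddx3x (0.31) rose. Of 6 genes of polyamine and hypusine synthesis, 3 rose and 1 fell (66.7% called, against 46.4% of all tested genes). The hypusine enzyme gene Dhps (0.33, from 25.7 and 23.2 to 30.6 and 31 CPM) and the spermidine synthase gene Srm (0.29, from 99.8 and 104.3 to 125.7 and 123.9 CPM) rose. The antizyme gene Oaz1, whose product restrains polyamine synthesis, fell from 51.7 and 49.4 to 37.5 and 38.5 CPM (-0.41). Of 10 elongation and termination genes, 4 rose and 5 fell (90% called, against 46.4% of all tested genes). The eEF2 kinase gene Eef2k (0.34, from 48 and 44.9 to 57.4 and 60.7 CPM) and the release factor gene Gspt1 (0.33, from 247.5 and 247.4 to 317.5 and 303.5 CPM) rose, and the elongation factor gene Eef2 fell from 3586 and 3672 to 3158 and 3128 CPM (-0.21). Gspt2 fell from 17.2 and 19.7 to 15 and 14.7 CPM (-0.31, edgeR adjusted p = 0.0208), a call that ended with DESeq2 and without untreated replicate 2, BML-210 replicate 1 or BML-210 replicate 2 (adjusted p up to 0.214, from 0.00843). Of the 3 mitochondrial initiation genes Mtif2, Mtif3 and Mtfmt, 0 passed in edgeR or under any alternative.

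**Figure D5:**
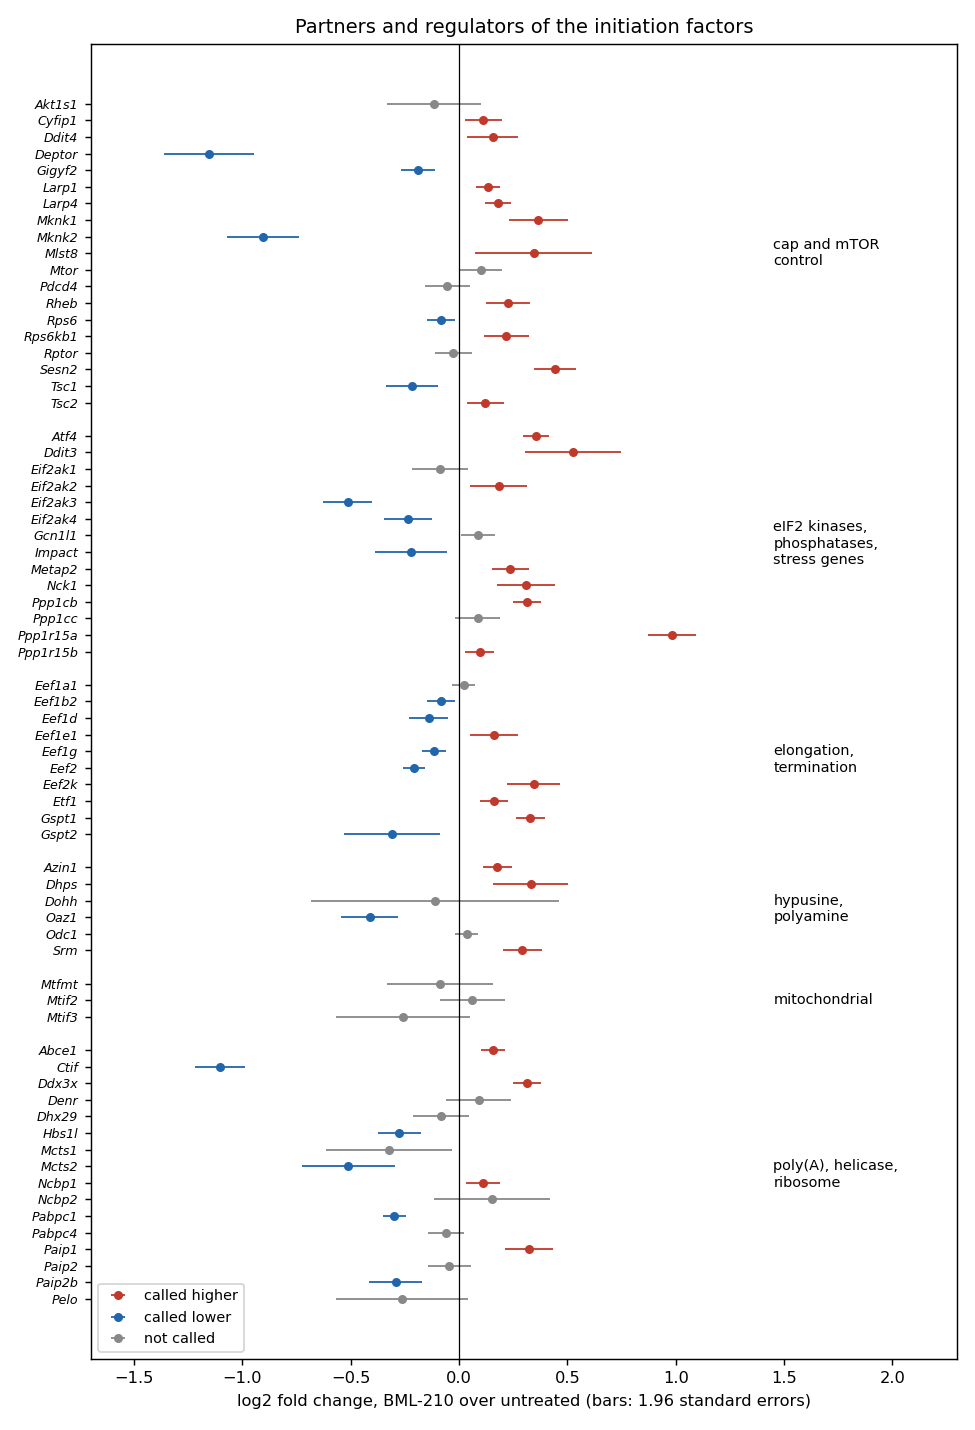
Log2 fold change with 95% intervals (x axis) for the 68 tested partner and regulator genes, by list and coloured by the edgeR call. Ppp1r15a lies furthest to the right and Deptor, Ctif and Mknk2 furthest to the left.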

How the data were processed

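Total RNA of 4 EO771 libraries was sequenced. Per the submitters' processing notes, the authors used bcl2fastq, STAR 2.5, featureCounts of Subread 1.5.1, edgeR 3.20.8 and mm10. The deposited table holds raw counts per gene, with exonic length and coordinates as other columns given by the authors. Strand and multimapping settings are not stated, so reads of overlapping genes and of near-identical copies cannot be told apart.

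The members and lists were chosen with earlier results of these data known. Counts were tested with edgeR 4.0.16 (R 4.3.3; TMM scaling, filterByExpr, robust quasi-likelihood fit, Benjamini-Hochberg over 14455 genes, call at adjusted p under 0.05); the standard error is the absolute log2 fold change over the square root of F. Alternatives were DESeq2 1.42.0, limma-voom 3.58.1, other scalings and filters, a replicate block, leaving out genes over 1% of counts or with overlapping exons, and leaving out each library. On simulated data with 200 changed genes among 14167, 57.7% of those changed by 0.5 and 78.1% of those changed by 1 on the log2 scale were recovered. The data gave 6714 calls, far more than the genes changed there, so these shares do not give the recovery among the members. The labels do not say whether same-numbered replicates were paired. Their deviations hardly correlated across all tested genes (0.0129). That value cannot exclude pairing, since counting noise also lowers it. A count of 3 was the floor.

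All 52 identifiers, starts and ends matched GENCODE M21, from whose transcripts shared words of 100 bases were counted. These words and the ratios per length were chosen after the data were seen. CPM of all libraries are given for up to 4 called genes of largest change per factor group with their nearest paralog, and for up to 3 per partner list; further genes printed here were picked after their values were seen. Ddit3, Ppp1ca and Rps6kb2 are each named on 2 rows, and the one with more counts was used. Nat1, listed as an alias of Eif4g2, is a different gene in the mouse. Protein identity between paralogs was not analysed here.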

Additional observations from a re-analysis of the deposited data

How the results depend on the processing

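Of the 25 called members, 19 (11 higher, 8 lower) were called in every alternative that tested them. DESeq2 called 11 members higher and 9 lower, and 4335 genes in all against 6714 by edgeR. Without genes with overlapping exons, 6 of 29 tested members were called higher and 7 lower, and 13 and 10 of 34 partners. Fewer genes were tested there, and the calls of Eif1 and Rps6, both still tested, were lost. Upper-quartile scaling gave 12 higher and 16 lower. The median log2 fold change of the members was -0.021 with upper-quartile scaling, 0.024 with library size only, 0.0020 with a mean of at least 1 CPM, 0.015 without overlapping-exon genes, and -0.0043 to 0.013 with one library left out. Leaving out each library gave 12 to 13 members higher and 8 to 10 lower, and 23 to 26 partners higher and 14 to 17 lower. The replicate block, for numbers that the labels do not call pairs, gave 14 higher and 12 lower, adding Eif1b (edgeR adjusted p = 0.0487), and 6847 called genes in all.

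Signs turned only for members that were not called. With upper-quartile scaling these were Eif3a (-0.0028), Eif4g1 (-0.026), Eif1ax (-0.022) and Eif5a (-0.021), and under the 1 CPM filter Eif4g1 (-0.0033). With one library left out, values ran from -0.023 to 0.038 for Eif1ax, -0.022 to 0.13 for Eif2b2, -0.13 to 0.038 for Eif2b4, -0.11 to 0.031 for Eif2d, -0.012 to 0.063 for Eif3a, -0.16 to 0.65 for Eif4ebp3, -0.0035 to 0.0049 for Eif4g1, -0.030 to 0.043 for Eif5a and -0.033 to 0.12 for Eif6. The cause was not tested. With 2 libraries a group, 2 residual degrees of freedom limit each test.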
